A study of Homo sapiens with 6 samples.

Results

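Daoy, an established human cell line of medulloblastoma origin, was exposed to 1 µM thapsigargin (Tg) for 3 h and set against untreated Daoy cells. Of the 6 expression arrays of the series, 4 hold this comparison, namely 2 untreated arrays and 2 arrays of Tg at 3 h, each pair numbered replicate 1 and replicate 2. The other 2 arrays, of the same dose at 8 h, enter the shared estimate of the spread and are used for a follow-up of the early response. All cultures were kept in DMEM with serum, carry no engineered change according to the labels, and differ, by the labels, in Tg and its duration alone. No solvent control is described for the untreated cells, so Tg and its solvent cannot be told apart. The values are MAS5 signals, a brightness per probe set on a linear scale, and differences were taken on the log2 scale within replicate number. A gene was read from its brightest probe set, which left 12409 genes tested of 19775 with a probe set of their own.

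Thapsigargin blocks the SERCA pumps that fill the endoplasmic reticulum (ER) with calcium. The store then empties, cytosolic calcium rises, and chaperones that need calcium fold proteins less well. The unfolded protein response (UPR) answers through the ER membrane sensors PERK, IRE1 and ATF6. PERK slows translation and raises the transcription factor ATF4, IRE1 splices XBP1 mRNA and cuts other mRNAs at the ER, and ATF6 is released to activate chaperone genes. Cytosolic calcium acts in parallel on calcineurin, on kinases and, with the UPR sensors, on NF-κB.

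The arrays of a replicate number resembled each other beyond the treatment. The geometric mean of the hybridization controls was 7762 to 11671 in replicate 1 but 2718 to 2840.3 in replicate 2, and the ratio of 3' to 5' ACTB signal was highest, at 4.47, on Tg 3 h replicate 1. Untreated replicate 2 stood apart in the genes downstream of PERK and ATF4, which are described below. Of 14 markers of the sonic hedgehog class of medulloblastoma and of its progenitors, 8 had a signal of at least 100 on all 4 arrays, among them ZIC1 and SFRP1, while ATOH1, HHIP, BARHL1 and MYCN stayed under 100 on all 4. None of 10 immune markers reached 100 on all 4 arrays. The summed signal of 12 fibroblast markers, which Daoy cells express through COL1A1 and VIM, was 99488 and 64143 on the untreated arrays and 87636 and 63015 at 3 h, and that of 12 endothelial markers 2723 and 2090.4 against 2396 and 1913. In bulk RNA, fewer cells of a type and less RNA per cell cannot be told apart.

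Nearly all genes that passed the test were higher with Tg. At 3 h, 143 genes were higher and 9 lower than in untreated cells at an adjusted p under 0.05 (limma with the replicate number as a block, Benjamini-Hochberg adjustment over all probe sets), which is 1.15% and 0.0725% of the genes tested. At an unadjusted p under 0.05 the split was far more even, with 910 higher and 742 lower. The chemokine genes CXCL8 and CCL20, the CHOP gene DDIT3, the nuclear receptor gene NR4A2 and the calcineurin regulator RCAN1 led the list. Among the 143 genes the median log2 fold change was 1.29, and 112 had risen at least 2-fold and 21 at least 4-fold. Over all genes the median was -0.03. All 143 moved up within both replicates, with a median of 1.4 in replicate 1 and 1.21 in replicate 2. In 139 of them both treated arrays lay above both untreated arrays. Of all genes tested, 30.3% had groups that did not overlap in one direction or the other. The genes were called from these same arrays, so the selection favours both counts, and they are no independent replication.

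**Figure D1:**
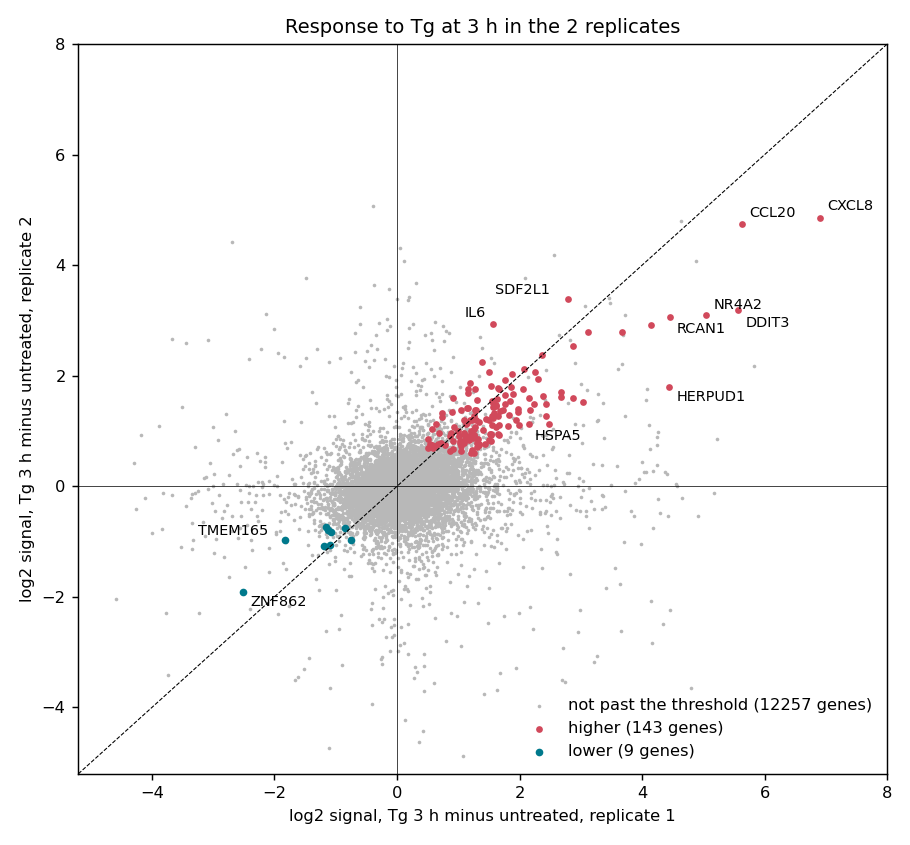
Difference in log2 signal between Tg at 3 h and untreated within replicate 1 (horizontal axis) and within replicate 2 (vertical axis), 1 point per gene tested, with the line of equality dashed. The 143 genes called higher (red) all lie above 0 on both axes, 98 of them with a larger change in replicate 1. The 9 called lower (blue) all lie below 0. The genes were called from these same arrays, which favours such agreement.

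The number of calls depended on how the spread was estimated. Without the block 9 genes were higher and 0 lower (407 and 158 at an unadjusted p under 0.05). A local pooled error test, the kind the study used, gave 41 and 0 (207 and 24 unadjusted). It was coded anew, with the signal filter and Benjamini-Hochberg adjustment used here, so its counts need not be those of the study. In limma without the intensity trend both counts were 0, where the smallest adjusted p was 0.321 and 630 genes were higher and 375 lower at an unadjusted p under 0.05. Leaving out 1 array gave from 51 genes higher (without Tg 3 h replicate 1) to 264 (without Tg 8 h replicate 2). In all, 49 of the 143 rises and 0 of the 9 falls passed with any 1 of the 6 arrays left out.

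The genes of the UPR itself rose unevenly. In the 5 lists of ER chaperones, ER folding enzymes, ER-associated degradation, UPR sensors and transcription factors, and PERK and ATF4 effectors, joined, 20 of 132 genes tested rose, 0 fell, and the median log2 fold change was 0.37. The rises were 15.2% of the genes tested in these lists, against 1.15% of all genes tested. That 1.15% is also the share to set beside each single list below. The lists were chosen with earlier results of these data known. At an unadjusted p under 0.05, 54 were higher and 3 lower, and the local pooled error test called 15 higher and 0 lower. Over all genes tested these counts were 910 and 742, and 41 and 0. Chaperones and cochaperones accounted for 10 of the 20 rises and folding enzymes for 1.

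Among 17 UPR sensors and transcription factors, 2 rose. DDIT3 encodes CHOP, a transcription factor that favours cell death under lasting ER stress. Its signal was 405 and 1654 on the untreated arrays and 19271 and 15024 at 3 h (replicates 1 and 2 in this order, here and below). This was a 20.8-fold rise (log2 fold change 4.38 ± 0.48, adjusted p = 0.00296). The value after ± is the standard error from the limma fit on all 6 arrays. That fit draws the spread of a probe set towards that of others of like intensity, so ± is not the spread of the 2 arrays per group. The change in DDIT3 was 5.57 within replicate 1 and 3.18 within replicate 2, and the groups did not overlap. EIF2AK3, which encodes PERK, rose from 622 and 1038 to 2572 and 3518 (log2 fold change 1.90 ± 0.15, adjusted p = 0.000405). XBP1, the target of IRE1 splicing, had a signal of 908 and 3018 on the untreated arrays and 3817 and 4899 at 3 h and did not pass (log2 fold change 1.39 ± 0.32, adjusted p = 0.112), and these probe sets do not tell its spliced from its unspliced form. ATF4 went from 4505 to 15523 in replicate 1 and from 20999 to 23669 in replicate 2, which did not pass (log2 fold change 0.98 ± 0.38, adjusted p = 0.353). Without untreated replicate 2, ATF4 and XBP1 had 1.90 and 2.15, but without untreated replicate 1 they had 0.06 and 0.62. Without Tg 3 h replicate 1, DDIT3 had 3.79 and an adjusted p of 0.0504. The other 13 genes of this list, ATF6 and the IRE1 gene ERN1 among them, did not pass either and lay between -0.33 and 0.96.

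ER chaperones and cochaperones held the most calls of the 5 UPR lists, with 10 of 20 higher and a median of 0.67. SDF2L1, a member of a chaperone complex of the ER lumen, rose from 1259 and 593 to 8664 and 6171 (log2 fold change 3.08 ± 0.16, adjusted p = 7.02e-05). DNAJB9, a J-domain partner of the chaperone BiP, rose from 1671 and 2096 to 14418 and 14443 (log2 fold change 2.95 ± 0.16, adjusted p = 7.9e-05). In both genes every treated array stood far above both untreated arrays, and the calls held with any 1 array left out. FICD, an enzyme that modifies BiP, had 298 and 256 on the untreated arrays and 1253 and 1105 at 3 h (log2 fold change 2.09 ± 0.17, adjusted p = 0.000579). CRELD2, a secreted ER stress protein, had 1951 and 2238 on the untreated arrays and 7260.0 and 7120.2 at 3 h (log2 fold change 1.78 ± 0.12, adjusted p = 0.000155). HSPA5, the gene of BiP itself, rose from 16614 and 18933 to 73709 and 41567 (log2 fold change 1.64 ± 0.21, adjusted p = 0.00808), with 2.15 within replicate 1 and 1.13 within replicate 2. A dimmer probe set of HSPA5 gave 608 and 419 untreated and 3483 and 2427 at 3 h, a log2 fold change of 2.53 ± 0.13 (adjusted p = 7.02e-05), with 2.52 within replicate 1 and 2.53 within replicate 2. The brighter of the pair thus showed the smaller change, and its call was lost without Tg 3 h replicate 1 (1.37, adjusted p = 0.123). MANF, HYOU1, DNAJC3, HSP90B1 and DNAJB11, the other 5 that rose, lay between 0.94 and 1.71. CANX and CALR, the calnexin and calreticulin genes, had 0.33 and 0.01 and did not pass.

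The BiP gene carries the ER stress response element (ERSE) in its promoter. The ERSE reads CCAAT and CCACG with 9 bases between them, and the ERSE-II reads ATTGG and CCACG with 1 base between them. ATF6 binds CCACG next to the general factor NF-Y on the other element. The promoters of HSPA5 and HERPUD1 below, from RefSeq on GRCh38.p14, show 1 of each kind beside a gene whose rise is given in the text. HSPA5 is at chr9:125241294-125241593 on the minus strand and HERPUD1 at chr16:56931892-56932191 on the plus strand. Each stretch is printed 5′ to 3′ in the direction of transcription, 250 bases before the start of the transcript to 50 after it. Capitals mark the ERSE, which starts 66 bases before the start in HSPA5, and the ERSE-II, which starts 117 bases before it in HERPUD1.
HSPA5: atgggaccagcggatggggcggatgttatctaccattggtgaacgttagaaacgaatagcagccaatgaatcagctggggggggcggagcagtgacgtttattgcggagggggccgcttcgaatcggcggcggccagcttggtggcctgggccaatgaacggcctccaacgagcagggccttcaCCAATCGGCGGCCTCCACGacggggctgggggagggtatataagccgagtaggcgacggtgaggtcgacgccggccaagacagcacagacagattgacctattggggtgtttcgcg
HERPUD1: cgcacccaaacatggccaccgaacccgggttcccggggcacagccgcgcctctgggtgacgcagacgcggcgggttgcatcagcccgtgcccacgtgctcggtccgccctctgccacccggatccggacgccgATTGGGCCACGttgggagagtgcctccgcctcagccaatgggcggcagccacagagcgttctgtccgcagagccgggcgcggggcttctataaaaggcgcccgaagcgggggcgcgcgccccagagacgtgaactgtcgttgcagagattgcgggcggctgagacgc

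Of 183 promoters listed for 121 of the genes called higher, 5 held an ERSE (2.73%), against 27 of 35116 promoters of all genes (0.0769%) and 17 of 14879 promoters of the genes tested (0.114%). These 5 were the promoters of HSPA5, CRELD2, FICD, HSP90B1 and TRIM5. The ERSE-II was found in the promoters of HERPUD1, SDF2L1 and HYOU1, 1.64% against 0.0541% of all and 0.101% of genes tested. The core of the UPR element, TGACGTGG, was in 1 promoter of a gene called higher, that of HYOU1 (0.546% against 0.729% of all and 0.833% of genes tested). The composite C/EBP-ATF site TGATGNAA, which ATF4 and CHOP can bind, was in 6, among them ATF3, HERPUD1 and PPP1R15B (3.28% against 3.62% of all and 2.14% of genes tested). Both strands were searched, a promoter can count for more than 1 motif, and several promoters of a gene were counted apart. For the C/EBP-ATF letters the called genes lay below all promoters but above those of the genes tested. These are counts of letters in a window, with no test.

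Few ER folding enzymes passed. Of 31, 1 rose, the disulfide isomerase gene PDIA4, from 1367 and 1641 to 2718 and 3283 (log2 fold change 1.00 ± 0.12, adjusted p = 0.00505), with nearly the same change in both replicates (0.99 and 1.00). The list had a median of 0.17. At an unadjusted p under 0.05, 9 were higher and 1 lower. The widest value, 4.0 for the oxidase gene ERO1B, came from untreated signals of 4.8 and 56, near the bottom of the scale, and did not pass (adjusted p = 0.0589).

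ER-associated degradation returns misfolded proteins to the cytosol for the proteasome, and 5 of 30 genes rose (median 0.11). HERPUD1, a membrane protein that organises the degradation complex, had 1376 and 6623 on the untreated arrays and 29829 and 23064 at 3 h (log2 fold change 3.12 ± 0.53, adjusted p = 0.0306). The change was 4.44 within replicate 1 and 1.80 within replicate 2, with a brighter untreated array in replicate 2, and the call was lost without Tg 3 h replicate 1 (2.50, adjusted p = 0.346). SELENOK, a selenoprotein of the ER membrane, rose from 8159 and 5661 to 23914 and 16458 (log2 fold change 1.55 ± 0.11, adjusted p = 0.000249). SEL1L, the adaptor of the HRD1 ubiquitin ligase, rose from 2221 and 2579.9 to 6989 and 6201 (log2 fold change 1.46 ± 0.15, adjusted p = 0.00222). DERL2, a derlin that takes part in moving proteins out of the ER, rose from 3949 and 3179.9 to 7354 and 8109 (log2 fold change 1.12 ± 0.13, adjusted p = 0.00475). In these 3 genes the groups did not overlap, and each call held with any 1 array left out. SELENOS, the last of the 5, had 0.68 ± 0.13 (adjusted p = 0.0432) and lost its call without any 1 of the 4 arrays.

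The genes downstream of PERK and ATF4 answered differently in the replicates. Of 34 tested, 2 rose, and the list median was 0.95 within replicate 1 and 0.12 within replicate 2. In 33 of the 34 genes the untreated signal was greater in replicate 2. The median log2 ratio of the untreated arrays was 1.85, while over all genes tested that median was 0.05. The stress gene TRIB3, for instance, was 839.9 and 7879 untreated and 5851 and 11662 at 3 h, and the asparagine synthetase gene ASNS 1296 and 10739.9 untreated and 2441 and 11986 at 3 h. What set untreated replicate 2 apart was not tested. The 2 genes that rose encode regulatory subunits of the phosphatase that reverses PERK's mark on eIF2α. PPP1R15A (GADD34) rose from 577 and 1412 to 2721 and 3960.0 (log2 fold change 1.86 ± 0.19, adjusted p = 0.00255), with 2.24 within replicate 1 and 1.49 within replicate 2. PPP1R15B (CReP) rose from 2542 and 3274 to 6003 and 5977 (log2 fold change 1.05 ± 0.13, adjusted p = 0.00656). PPP1R15B lost its call without Tg 3 h replicate 1. The local pooled error test, which ignores the replicate number, called 5 of the list higher. Without untreated replicate 2, the count over the 5 joined lists was 42, and without untreated replicate 1 it was 20.

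**Figure D2:**
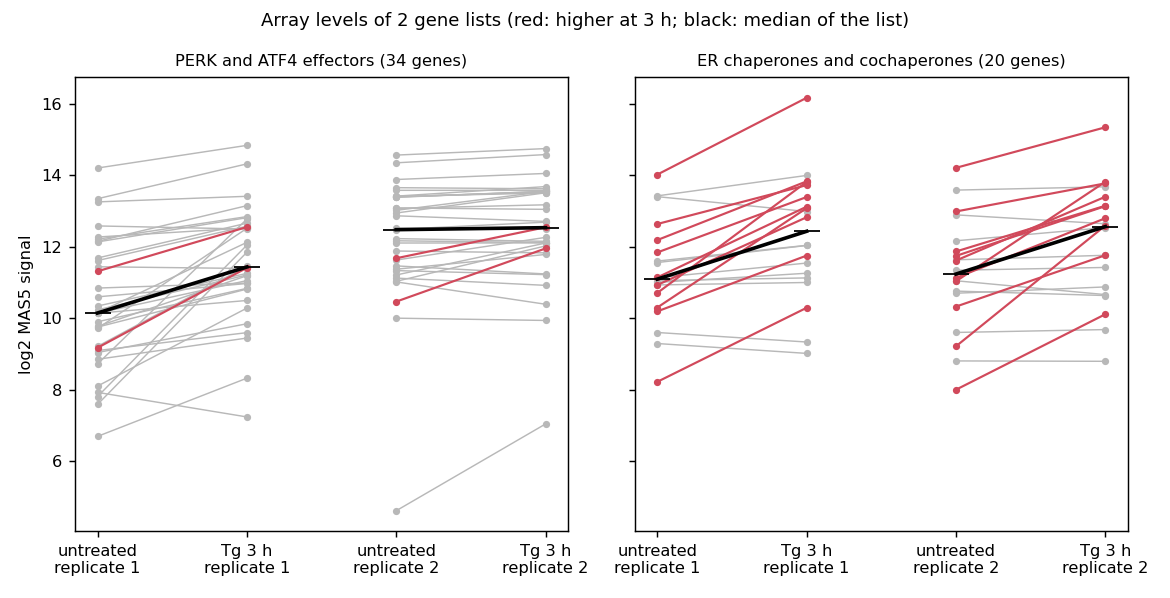
Log2 MAS5 signal on the 4 arrays of 34 PERK and ATF4 effectors (left) and 20 ER chaperones and cochaperones (right), with lines joining untreated and Tg 3 h of the same replicate, genes called higher in red and list medians in black. The effectors start higher in untreated replicate 2 and hardly move there, while the chaperones start alike (median log2 ratio 0.05) and 10 of them move in both.

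Of 41 genes of ER translocation and export, 0 rose and 0 fell in limma (median 0.07). At an unadjusted p under 0.05, 8 were higher and 2 lower, and the local pooled error test called 0. SRP14, a subunit of the signal recognition particle and the brightest of the list, had 26789.8 and 16042 on the untreated arrays and 26625 and 19149 at 3 h and groups that overlapped.

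ATP2A2, the gene of the SERCA2 pump that Tg inhibits, was 9641 and 8909 on the untreated arrays and 14959 and 12797 at 3 h, a log2 fold change of 0.58 ± 0.11 with an adjusted p of 0.0531, just outside the threshold, although the groups did not overlap. It passed under 7 alternatives, with adjusted p from 0.0088 to 0.0446: the 4 arrays alone with the block, quantile normalization, a signal of at least 200, a pseudocount of 50, and leaving out untreated replicate 2 or either Tg 8 h array. As reported, none of 18 calcium pumps and channels passed in limma (unadjusted, 3 higher and 2 lower) or by the local pooled error test. RCAN1, an inhibitor of calcineurin that is itself a target of the calcineurin pathway, rose from 2258 and 3362 to 49259.7 and 28217, 13.5-fold (log2 fold change 3.76 ± 0.28, adjusted p = 0.000337). Its treated arrays lay far above the untreated ones in both replicates, and the call held with any 1 array left out. It was the 1 member of 14 calcineurin and NFAT genes to pass. The list median was 0.11.

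Genes of the kinase, cytokine and other signalling lists were the other large group among the rises. In the 6 lists of immediate early transcription factors, MAPK feedback, calcineurin and NFAT, NF-κB subunits and inhibitors, chemokines and cytokines, and growth factors and angiogenic ligands, joined, 30 of 132 genes tested rose, 0 fell, and the median was 0.54. The rises were 22.7% of the genes tested in these lists, against 1.15% of all genes tested. Chemokines and cytokines held 10 of the 30, and calcineurin and NFAT 1. The signal filter favoured chemokines and cytokines that are high with Tg, as described below, which raises the joined count and median too. At an unadjusted p under 0.05, 68 were higher and 3 lower, and the local pooled error test called 14 higher and 0 lower. The order of signalling and UPR counts was not fixed: they were 13 and 14 without Tg 3 h replicate 1, 37 and 42 without untreated replicate 2, and 3 each without the block. Their difference was not tested.

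**Figure D3:**
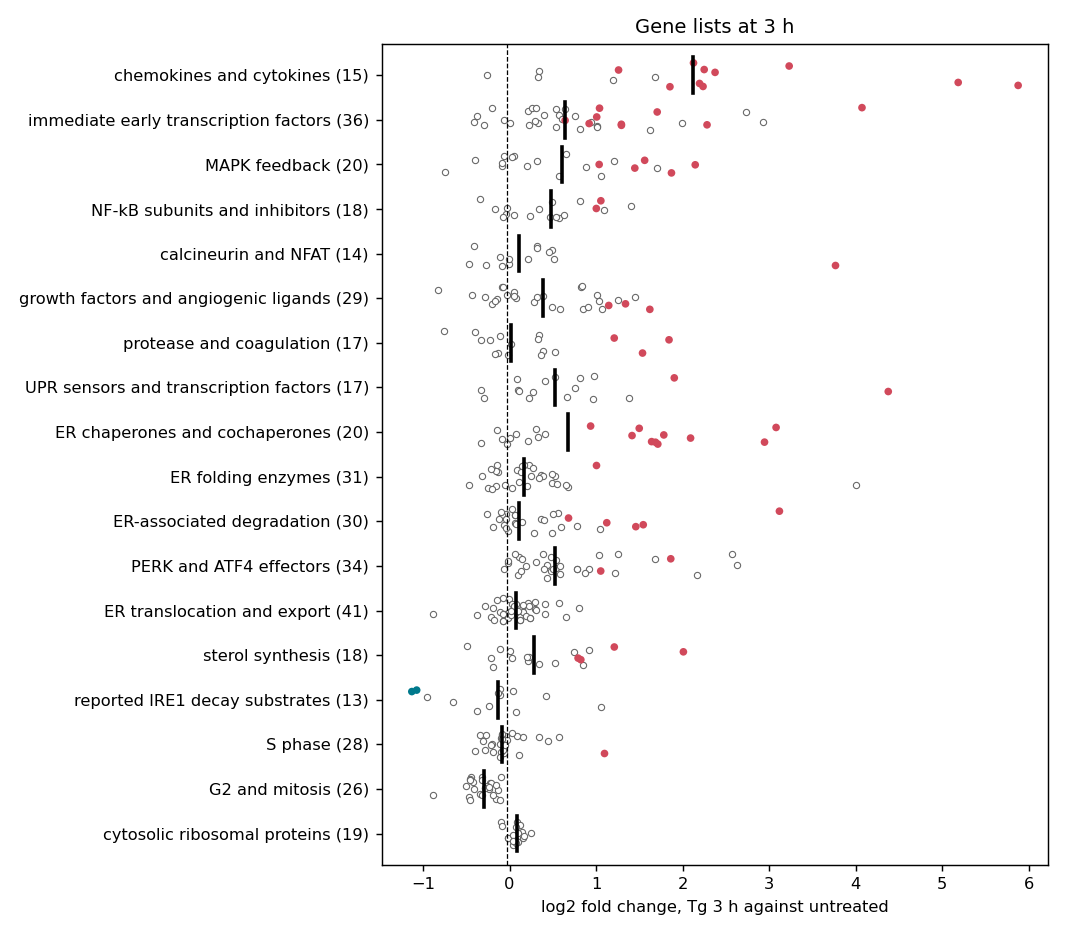
Log2 fold change between Tg at 3 h and untreated for the tested members of 18 gene lists (number of genes in brackets), 1 point per gene, filled where the gene was called higher (red) or lower (blue), with the list median as a black bar and the median of all genes dashed. The tested chemokines and cytokines have a median of 2.13, which the signal filter raises since some of them passed it only with a treated array, and all 26 G2 and mitosis genes lie below 0 with none called.

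Of 36 immediate early transcription factors and regulators, which cells switch on from existing proteins, 9 rose (median 0.64). NR4A2, an orphan nuclear receptor induced by calcium and cAMP, rose from 81.1 and 77.2 to 2671 and 664 (log2 fold change 4.07 ± 0.42, adjusted p = 0.00248). Its untreated arrays were alike and both under 100, so it passed the signal filter through its treated arrays alone, which favours a call. The 2 treated arrays differed, so that the change was 5.04 within replicate 1 and 3.11 within replicate 2. Under the alternatives its value ran from 3.24 to 4.91, and the size of this fold rests on low signals. ATF3, a stress-induced repressor, rose from 680.0 and 2723 to 5585 and 7849.7 (log2 fold change 2.28 ± 0.31, adjusted p = 0.00938). MAFF, a small Maf protein, had 1128 and 1616 on the untreated arrays and 3562 and 5451 at 3 h (log2 fold change 1.71 ± 0.12, adjusted p = 0.000267), with groups well apart. NFIL3 rose from 2158 and 3511 to 6837 and 6654 (log2 fold change 1.29 ± 0.19, adjusted p = 0.0124). BHLHE40, FOSL2, MYC, CEBPD and IER3 lay between 0.64 and 1.29. FOS, the textbook immediate early gene, was 214 and 359 on the untreated arrays and 139.8 and 312 at 3 h and did not pass (log2 fold change -0.41 ± 0.43, adjusted p = 0.755), and EGR1 had 0.53 ± 0.18 (adjusted p = 0.291). As the mean of its 3 probe sets ATF3 had 1.35 (adjusted p = 0.13) and did not pass, and its dimmest probe set had 1.37 within replicate 1 and -0.70 within replicate 2. NR4A2, ATF3 and NFIL3 lost their calls without Tg 3 h replicate 1, with 3.46, 1.90 and 1.12.

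In the MAPK feedback list 5 of 20 genes rose (median 0.61). DUSP1, a phosphatase that switches off MAP kinases, rose from 1424 and 2349 to 9144 and 7169 (log2 fold change 2.15 ± 0.23, adjusted p = 0.00279). SPRY4 and SPRY2, Sprouty inhibitors of receptor signalling, rose from 107 and 223 to 476 and 671 (log2 fold change 1.87 ± 0.24, adjusted p = 0.00658) and from 814 and 763 to 2894 and 1871 (log2 fold change 1.56 ± 0.17, adjusted p = 0.00347). GADD45A, a stress-induced gene of this list, rose from 3199.8 and 6078 to 11218 and 12902 (log2 fold change 1.45 ± 0.18, adjusted p = 0.00542). DUSP5 had 1.04. SPRY4 and GADD45A lost their calls without Tg 3 h replicate 1. DUSP1, read as the mean of its 3 probe sets, had 1.19 (adjusted p = 0.298) and did not pass.

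Of 18 NF-κB subunits and inhibitors, 2 rose (median 0.48). REL, the c-Rel subunit, had 547 and 540.2 on the untreated arrays and 1386 and 922 at 3 h (log2 fold change 1.06 ± 0.20, adjusted p = 0.0489), and NFKBIZ, an inducible nuclear IκB protein, had 1076 and 1003 on the untreated arrays and 2052 and 2112 at 3 h (log2 fold change 1.00 ± 0.15, adjusted p = 0.0181). Both lost their calls without untreated replicate 1 or either Tg 3 h array, and under centring on the median. REL also lost its call after quantile normalization, with signals under 100 raised to 100 and with the mean of its probe sets. The other probe sets of REL had 0.23 and 0.49 (adjusted p = 0.885 and 0.491), and that of NFKBIZ 1.35 (adjusted p = 0.00412).

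Among chemokines and cytokines the test called 10 of 15 tested, with a median log2 fold change of 2.13. The list has 34 genes, 32 of them with a probe set of their own, and those that did not reach the signal minimum on 2 arrays were not tested. CCL20 passed that filter through the treated arrays alone, and CXCL3, CXCL8, IL1A, TSLP and TNFSF15 needed at least 1 treated array, so the filter favours genes that are high with Tg and raises both the share called and the median. CXCL8, the neutrophil chemokine interleukin-8, was 42.3 and 154 on the untreated arrays and 5035 and 4468 at 3 h (log2 fold change 5.88 ± 0.37, adjusted p = 0.000148). CCL20, a ligand of CCR6, was 24.5 and 27.6 on the untreated arrays and 1217 and 736 at 3 h (log2 fold change 5.19 ± 0.31, adjusted p = 0.000105). Both were dim on the untreated arrays, under 200, so the size of these folds rests on low signals. With signals under 100 raised to 100 they were 5.26 and 3.24 on the log2 scale. IL11, a cytokine of the IL-6 family, rose from 308 and 165 to 3946 and 1137 (log2 fold change 3.23 ± 0.24, adjusted p = 0.000318). CXCL2, another neutrophil chemokine, rose from 159 and 219.8 to 823 and 1146 (log2 fold change 2.38 ± 0.18, adjusted p = 0.00041), alike in both replicates.

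IL6 rose from 214 and 106 to 634 and 805 (log2 fold change 2.25 ± 0.35, adjusted p = 0.0186), and its call was lost without either Tg 3 h array. LIF, a further member of the IL-6 family, rose from 245 and 547 to 1795 and 1656 (log2 fold change 2.24 ± 0.27, adjusted p = 0.00548). CXCL1 rose from 159.6 and 221 to 1022 and 724 (log2 fold change 2.20 ± 0.26, adjusted p = 0.00485) and lost its call without Tg 3 h replicate 1. IL1A, the alarmin interleukin-1α, rose from 78 and 188 to 385 and 724 (log2 fold change 2.13 ± 0.23, adjusted p = 0.00287). CXCL3 and TNFSF9 also rose, with 1.85 and 1.26. In every gene named in this list except TNFSF9, IL11 and IL6, untreated replicate 2 was the brighter of the untreated arrays, as it was in 12 of the 15.

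The promoters of CXCL8 and DUSP1, among the largest rises of the signalling lists, are shown for the elements of NF-κB and AP-1 and for the cyclic AMP and calcium response element (CRE). CXCL8 is at chr4:73740319-73740618 on the plus strand and DUSP1 at chr5:172771146-172771445 on the minus strand of GRCh38.p14, from RefSeq and over the same window as above. Capitals mark in CXCL8 the AP-1 letters TGANTCA, starting 137 bases before the start, and the NF-κB letters GGANTTTCC, starting 91 before it, and in DUSP1 the CRE letters TGACGTCA, starting 125 before it.
CXCL8: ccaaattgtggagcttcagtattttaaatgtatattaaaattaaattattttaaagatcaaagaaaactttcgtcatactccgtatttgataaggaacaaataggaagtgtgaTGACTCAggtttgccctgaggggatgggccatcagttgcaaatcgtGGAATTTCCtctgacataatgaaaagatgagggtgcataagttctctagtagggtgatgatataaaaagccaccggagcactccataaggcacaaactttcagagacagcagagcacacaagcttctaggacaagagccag
DUSP1: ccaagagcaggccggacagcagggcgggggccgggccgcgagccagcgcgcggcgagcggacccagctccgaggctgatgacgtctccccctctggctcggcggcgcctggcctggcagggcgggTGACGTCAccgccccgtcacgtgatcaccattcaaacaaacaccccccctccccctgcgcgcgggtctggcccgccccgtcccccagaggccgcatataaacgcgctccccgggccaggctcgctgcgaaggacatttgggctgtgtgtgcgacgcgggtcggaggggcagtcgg

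GGANTTTCC was in 17 of the 183 promoters of genes called higher (9.29%), against 1.64% of all promoters and 1.69% of those of genes tested. They included those of CXCL1, CXCL2, CXCL3, CXCL8, IL6, REL and NFKBIZ, and those of the UPR genes EIF2AK3 and PPP1R15A. TGACGTCA was in 7, with DUSP1, RCAN1, MAFF and PPP1R15A among them (3.83% against 1.85% of all and 2.78% of genes tested), and TGANTCA in 16 (8.74% against 7.71% of all and 5.34% of genes tested). The CArG box of serum response factor was in 4 (2.19% against 1.29% of all and 1.21% of genes tested). Among the 20 largest rises, 17 had promoters listed, 27 in all. Of these, 4 held the NF-κB letters (14.8%), 8 those of AP-1 (29.6%, from 5 genes), 2 the CRE (7.41%) and 2 the ERSE-II (7.41%). The C/EBP-ATF site was in 2 (7.41%), the ERSE and the CArG box in 1 each (3.7%), and the UPR element core in 0. In promoters of genes tested, NF-κB had 1.69%, AP-1 5.34%, the CRE 2.78% and the ERSE-II 0.101%. There the C/EBP-ATF site had 2.14%, the ERSE 0.114%, CArG 1.21% and the UPR element core 0.833%. No test was made.

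Growth factors and angiogenic ligands rose in 3 of 29 cases (median 0.39). INHBA, the activin βA subunit, rose from 6484 and 4258 to 22000.2 and 11881 (log2 fold change 1.62 ± 0.12, adjusted p = 0.000313). HBEGF, a membrane-bound EGF receptor ligand, rose from 619.9 and 873 to 1700.3 and 2042 (log2 fold change 1.34 ± 0.18, adjusted p = 0.00809), and CCN2, connective tissue growth factor, from 5481 and 5904 to 13055 and 12147 (log2 fold change 1.15 ± 0.16, adjusted p = 0.00938). HBEGF and CCN2 lost their calls without Tg 3 h replicate 1. VEGFA, the main angiogenic ligand, was 1854 and 6031 on the untreated arrays and 5812 and 7859.7 at 3 h. The change was 1.65 within replicate 1 and 0.38 within replicate 2, it did not pass (log2 fold change 1.02 ± 0.34, adjusted p = 0.29), and the groups overlapped in that untreated replicate 2 lay above Tg 3 h replicate 1. Without untreated replicate 2 the value of VEGFA was 1.81, but without untreated replicate 1 it was 0.22.

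In the protease and coagulation list 3 of 17 rose (median 0.02). PLAU, the urokinase gene, rose from 1876 and 1499 to 6358 and 5698 (log2 fold change 1.84 ± 0.15, adjusted p = 0.000594), and F3, tissue factor, from 2084 and 894 to 6404 and 2448 (log2 fold change 1.54 ± 0.14, adjusted p = 0.00106). F3 differed between the replicates in level but little in change. ADAMTS1, a secreted metalloprotease, had 1.21 ± 0.18 (adjusted p = 0.0153), and lost its call without Tg 3 h replicate 1 or untreated replicate 2.

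Several of the 20 largest rises lay outside every list. PTGS2, the inducible cyclooxygenase, rose from 113 and 387 to 1999 and 2930.0 (log2 fold change 3.53 ± 0.29, adjusted p = 0.000665). ZNF165, a zinc finger gene, rose from 429 and 527 to 3148 and 3045 (log2 fold change 2.70 ± 0.15, adjusted p = 7.9e-05), with nearly the same signals in both replicates. SGK1, a kinase under serum and steroid control, rose from 3609 and 2598 to 17273 and 10870.0 (log2 fold change 2.16 ± 0.14, adjusted p = 0.000155). In all, 82 of the 143 genes higher were in none of the lists. CITED2, a coactivator that competes for CBP and p300, had 1.96 ± 0.23. The small GTPase gene GEM and the G protein regulator gene RGS2 had 1.81 ± 0.24 and 1.65 ± 0.19. GEM and RGS2 lost their calls without Tg 3 h replicate 1, and GEM also without Tg 3 h replicate 2.

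**Figure D4:**
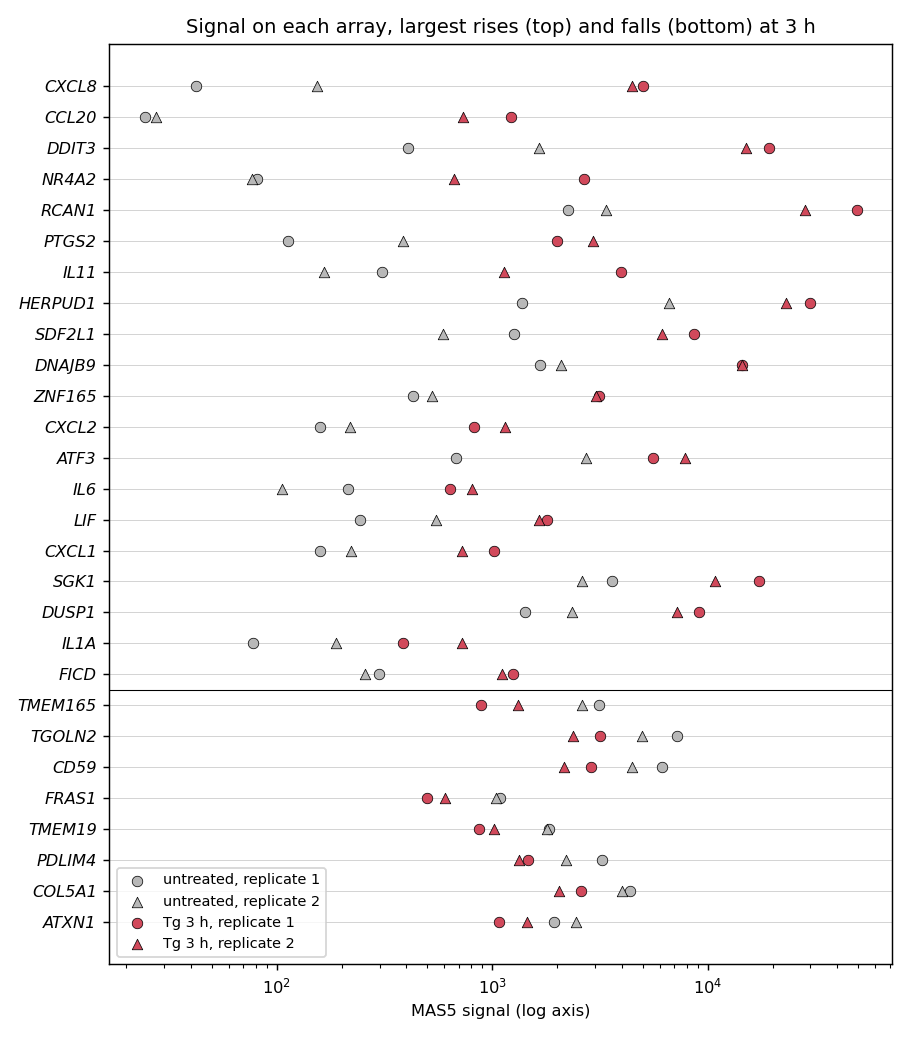
MAS5 signal (log axis) of the 20 largest rises and 8 falls on the untreated (grey) and Tg 3 h (red) arrays, circles for replicate 1 and triangles for replicate 2. In each of these genes both treated arrays lie on the same side of both untreated arrays, which their selection from these same arrays favours. CXCL8 runs from 42.3 to 5035.

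Among 18 genes of sterol synthesis 4 rose (median 0.29). STARD4, a cholesterol carrier, rose from 368 and 661 to 1919.5 and 2057 (log2 fold change 2.01 ± 0.21, adjusted p = 0.00279), and HMGCS1, an early enzyme of the pathway, from 583 and 764 to 1199 and 1990.1 (log2 fold change 1.21 ± 0.16, adjusted p = 0.00808). IDI1 and INSIG1 had 0.82 and 0.79, and lost their calls without either Tg 3 h array or 1 of the untreated ones. In IDI1 2 dimmer probe sets were below 0. HEY1, a Notch target, was the 1 of 20 ID, SMAD and Notch genes to rise (log2 fold change 1.11 ± 0.17, adjusted p = 0.0195), and E2F7 the 1 of 28 S phase genes (log2 fold change 1.09 ± 0.16, adjusted p = 0.0124). E2F7 encodes a repressor of the other E2F targets. Both lost their calls without untreated replicate 1 or Tg 3 h replicate 1, and E2F7 also without Tg 3 h replicate 2.

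All 26 G2 and mitosis genes had a negative log2 fold change (median -0.30), but 0 passed in limma or by the local pooled error test, and 9 were lower at an unadjusted p under 0.05. The cyclin gene CCNB1 was 13395 and 10544 on the untreated arrays and 9377 and 9376 at 3 h. In the same fit 742 of all 12409 genes were lower at that level. The death list held 2 rises of 19, the death receptor gene TNFRSF10A (log2 fold change 1.09 ± 0.18, adjusted p = 0.0229) and the survival gene MCL1 (log2 fold change 0.60 ± 0.11, adjusted p = 0.0421). TNFRSF10A lost its call without untreated replicate 1 or Tg 3 h replicate 1, and MCL1 without any 1 of the 4 arrays. No G1 regulator, cytosolic heat shock gene, ribosomal protein gene or steady-state reference gene passed in limma or by the local pooled error test. At an unadjusted p under 0.05, 2 G1 regulators and 1 gene of each of the other 3 lists were higher, and 1 G1 regulator and 1 heat shock gene lower. HSP90AA1, the cytosolic HSP90, had 0.01, and ACTB 0.17.

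The 9 falls had a median log2 fold change of -0.95. TMEM165, a Golgi ion transporter, fell from 3137 and 2602 to 884 and 1324 (log2 fold change -1.4 ± 0.20, adjusted p = 0.0124). Its other probe sets had -1.18 (adjusted p = 0.013) and, at dim signals, -0.03, the latter with 0.89 within replicate 1 and -0.95 within replicate 2. TGOLN2, which encodes the trans-Golgi protein TGN46, fell from 7189 and 4964 to 3161 and 2359.8 (log2 fold change -1.13 ± 0.14, adjusted p = 0.00529). CD59, a membrane-anchored inhibitor of complement, fell from 6129.9 and 4479 to 2872 and 2159 (log2 fold change -1.07 ± 0.13, adjusted p = 0.00542). The replicates gave -1.19 and -1.07 for TGOLN2 and -1.09 and -1.05 for CD59, both near a 2-fold drop. TGOLN2 and CD59 were the 2 called among 13 reported substrates of IRE1-dependent decay (median -0.13), while 0.0725% of all genes tested were called lower. The list ran from -1.13 to 1.05, and 4 of the 13 lay above 0. BLOC1S1, another of that list, was 1886 and 1919.5 on the untreated arrays and 1011 and 1459 at 3 h and did not pass (log2 fold change -0.65 ± 0.17, adjusted p = 0.158). FRAS1, TMEM19, PDLIM4, COL5A1 and ATXN1 lay between -0.95 and -0.80. The other probe sets of PDLIM4 had only -0.29, -0.25 and -0.06 and did not pass. ZNF862 had the lowest value, -2.21, from 285 and 308 to 50 and 82.4, but its other probe set gave 0.0003. With the mean of a gene's probe sets, CD59, COL5A1 and FRAS1 were the 3 of the 9 still called. Each of the 9 lost its call on leaving out at least 1 of the 4 arrays. TGOLN2 did so without untreated replicate 1 alone (-1.01, adjusted p = 0.0582), and CD59 without Tg 3 h replicate 1 alone (-1.01, adjusted p = 0.0636).

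Where a gene had further probe sets, they mostly pointed the same way. For 75 of the genes called higher there were 125 others tested, of which 117 had the same sign and 50 were called themselves. The opposite sign appeared in 6 genes higher and 2 lower. One was ATXN1, where a dimmer probe set had 0.40.

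Set against 8 h, the genes higher at 3 h were sorted by the threshold into 3 groups. Of the 143 genes higher at 3 h, 26 were lower at 8 h than at 3 h, 20 were higher still, and 97 did not pass in either direction (limma contrast of 8 h against 3 h in the same fit, adjusted p under 0.05). Over all genes, 1.77% were lower and 1.47% higher at 8 h than at 3 h. The contrasts share the Tg 3 h arrays, and picking genes for high values on those arrays favours lower values at 8 h. The 97 include genes that narrowly missed the threshold, such as LIF (-1.21, adjusted p = 0.0562) and SELENOK (0.49, adjusted p = 0.0554). Against untreated, 105 of the 143 were also higher at 8 h, where 4.7% of all genes were, and these comparisons share the untreated arrays. Without Tg 3 h replicate 1 the counts were 3 and 1, without the block both were 0, and without the intensity trend both were 0.

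Counts between 8 h and 3 h were also taken over whole lists. Of the 132 signalling genes tested, called at 3 h or not, 21 were lower and 4 higher at 8 h than at 3 h. Of the 132 UPR genes, 0 were lower and 23 higher, and of 41 translocation and export genes 0 and 12. Whether the lists differ in this beyond chance was not tested.

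NR4A2 was 334 and 120.1 at 8 h, a difference from 3 h of -2.73 ± 0.42 on the log2 scale. SGK1 was 2646 and 2388 at 8 h, a log2 fold change from untreated of -0.28. The same value was 0.22 for DUSP1, -0.08 for INHBA and -0.25 for RGS2, none of which passed at 8 h. NEDD9, an adhesion scaffold, rose from 1349 and 1212 to 3231 and 2918 at 3 h (log2 fold change 1.26 ± 0.23, adjusted p = 0.0435) and was 319 and 553 at 8 h, below both untreated arrays. Its call at 3 h was lost on leaving out any 1 of the 4 arrays, with signals under 100 raised to 100 (adjusted p = 0.0576) and with the mean of its probe sets (adjusted p = 0.214). CXCL8, DDIT3, RCAN1, PTGS2 and HERPUD1 were 4.89, 4.41, 3.27, 3.30 and 3.27 above untreated at 8 h, and their differences from 3 h did not pass. SDF2L1 rose on to 18180.4 and 12581, PDIA4 to 7395 and 8625, and SEL1L to 17719.6 and 13732. IL1A ran with this last group, at 1045 and 1631.

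**Figure D5:**
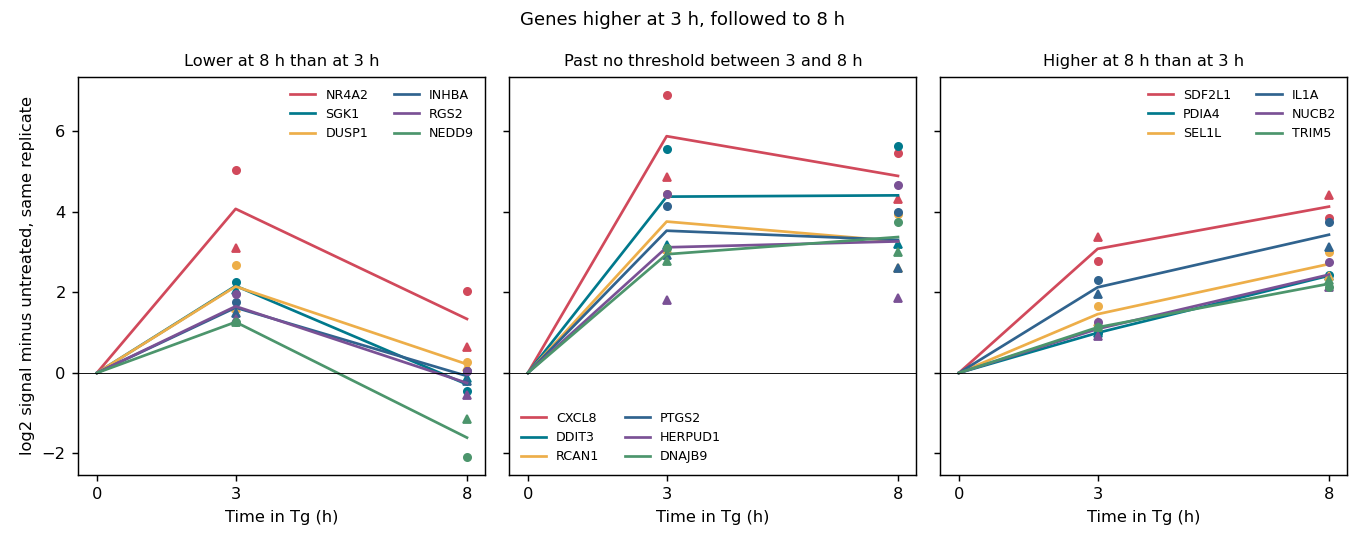
Log2 signal minus that of the untreated array of the same replicate at 3 and 8 h of Tg, with lines for the mean of 2 replicates, circles for replicate 1 and triangles for replicate 2, for 6 genes each that were lower at 8 h than at 3 h (left), passed in neither direction (middle) or were higher at 8 h (right). NEDD9 ends below 0 in both replicates, while SDF2L1 climbs in both.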

How the data were processed

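Total RNA of 6 Daoy cultures was hybridized to expression arrays. The deposited values are signal intensities on a linear scale, which the authors computed with MAS5 and scaled to a common trimmed mean (500.1 on each array here). Detection calls were not used here. The 26026 probe sets that reached a signal of 100 on 2 or more of the 4 arrays compared were log2-transformed and fitted on all 6 arrays in R 4.3.3 with limma 3.58.1 (group and replicate number as terms, eBayes with an intensity trend, two-sided, Benjamini-Hochberg adjustment, threshold 0.05). The study describes independent experiments, and same-numbered arrays deviated together (correlations across probe sets of 0.276 to 0.355, and of 0.642 to 0.692 for 12529 bright ones), so the numbers were used to pair the arrays. With 2 arrays per group, their number limits the precision. On data simulated with independent noise around the fitted values, the mean estimate over all planted changes was near their true size. This does not cover genes picked by a call, whose folds can be too large. The share of false calls lay above the nominal level, so the number of calls may be too high.

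The platform annotation gave 1 symbol to 41097 of the 54675 probe sets, more than 1 to 1801 and no symbol to 11777, and a gene was named only from the first kind. Genes named are the 20 largest rises and all falls whose mean signal reached 500 untreated or at 3 h, up to 4 called members of each list (2 of the brightest where none was called), HSPA5, XBP1, ATF4, DDIT3, VEGFA, CXCL8 and FOS, and up to 8 genes each way between 8 h and 3 h. Others were named after their values had been seen. The members and the 29 gene lists were chosen with earlier results of these data known. Alternatives were fits without the block, on the 4 arrays alone or without the intensity trend, and a local pooled error test coded anew. Further ones were quantile normalization, centring on the median, other filters and floors, a pseudocount of 50 and the mean of a gene's probe sets. The last were a fold of at least 2 and leaving out each array. Promoters came from RefSeq (GRCh38.p14), and no coordinates are given for probe sets, since the files name no build.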

Additional observations from a re-analysis of the deposited data

Results flagged for a closer look

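Of the 66 named genes called at 3 h, 28 differed between the 2 durations of Tg in the test of 8 h against 3 h (limma, adjusted p under 0.05), a test that shares the Tg 3 h arrays with the calls at 3 h. Over all genes 1.77% were lower and 1.47% higher at 8 h. The 28 are no measure of how common such genes are, since NUCB2, TULP3, TRIM5, SELENOS, NEDD9, GEM, RGS2 and CITED2 were named for this difference alone. On the log2 scale, 8 h minus 3 h, the rises that were lower at 8 h had -2.87 (NEDD9), -2.73 (NR4A2), -2.54 (GEM), -2.45 (SGK1), -1.93 (DUSP1), -1.90 (RGS2), -1.85 (CITED2), -1.70 (INHBA), -1.44 (IL11), -1.42 (REL), -1.23 (ADAMTS1), -1.14 (PLAU), -0.93 (SPRY2), -0.86 (HBEGF) and -0.81 (F3). The rises that were higher at 8 h had 1.42 (PDIA4), 1.35 (NUCB2), 1.31 (IL1A), 1.24 (SEL1L), 1.12 (TULP3), 1.08 (TRIM5), 1.05 (SDF2L1), 1.00 (SELENOS), 0.81 (CRELD2) and 0.67 (DERL2). Among the falls, TGOLN2 and CD59 were lower still at 8 h, by -1.08 and -1.38, while ATXN1 stood 0.84 higher, with signals of 2132 and 2336 against 1928 and 2448 untreated. Groups of 2 arrays were too small for a search for single outlying arrays.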

How the results depend on the processing

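With 2 arrays per group, dim signals such as untreated CXCL8, CCL20 and NR4A2 limit how precisely a fold is known. In order, counts are given for genes higher at 3 h, genes lower at 3 h, UPR genes higher, signalling genes higher, rises lower at 8 h and rises higher at 8 h (143, 9, 20, 30, 26 and 20 as reported). Without the replicate block they were 9, 0, 3, 3, 0 and 0 (unadjusted p under 0.05: 407 higher, 158 lower), and without the intensity trend all were 0. On the 4 arrays alone the first 4 counts were 285, 49, 35 and 49 with the block and 5, 0, 1 and 3 without it, and by the local pooled error test 41, 0, 15 and 14; these settings give no value at 8 h. Genes lower at 3 h numbered 14 under centring on the median, 14 with no filter, 19 with a signal of at least 200, 19 with a pseudocount of 50, 4 when a gene's probe sets were averaged and 4 with a fold of at least 2. Rises lower at 8 h numbered 17 with the mean of all probe sets and 16 with a fold of at least 2, where rises higher at 8 h numbered 5. Leaving out 1 array gave 51 to 264, 1 to 35, 14 to 42, 13 to 49, 3 to 44 and 1 to 44. All other counts were within 1.5 times the reported ones. Of the 66 named calls, 8 passed without the block, 29 by the local pooled error test, 65 after quantile normalization, 59 after centring, 66 with no filter and 49 with the mean of all probe sets, and none changed sign under any alternative. Centring moved the median of all genes from -0.03 to -0.14. The causes of these shifts were not tested.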

Other observations

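Several further genes outside the lists rose at 3 h, named here after their values had been seen. PIGA, the first enzyme of GPI anchor synthesis, was 416 and 499 on the untreated arrays and 1381 and 1300.3 at 3 h (log2 fold change 1.56 ± 0.16, adjusted p = 0.00257). BRD2, a reader of acetylated histones, was 3102 and 2240.3 on the untreated arrays and 9315 and 5586 at 3 h (log2 fold change 1.45 ± 0.15, adjusted p = 0.00248). CD274, the gene of the immune checkpoint ligand PD-L1, was 306 and 299.9 on the untreated arrays and 740.4 and 1016 at 3 h (log2 fold change 1.52 ± 0.26, adjusted p = 0.0295). The CD274 call was lost without untreated replicate 2 or either Tg 3 h array, and its other probe set had 0.46 (adjusted p = 0.567). SNAI2, a repressor of the epithelial programme, rose from 3275 and 2196 to 7905 and 4604 (log2 fold change 1.17 ± 0.16, adjusted p = 0.00938) and was 2386 and 2156 at 8 h. SNAI2 lost its call without Tg 3 h replicate 1.

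Some large values did not pass at all. The stress gene SESN2 was 192 and 2093 on the untreated arrays and 3678 and 4157 at 3 h, with 4.26 within replicate 1 and 0.99 within replicate 2 and an adjusted p of 0.147. CHAC1, which degrades glutathione, was 224 and 2367 on the untreated arrays and 4223 and 4396 at 3 h (adjusted p = 0.136), and DDIT4, an inhibitor of mTORC1, 421 and 10932 on the untreated arrays and 6999 and 13152 at 3 h (adjusted p = 0.338). In all 3 the untreated replicate 2 array was more than 10-fold brighter than untreated replicate 1. SOX2, a marker of neural progenitors, was 1359 and 1562 on the untreated arrays and 498 and 744 at 3 h, with -1.45 within replicate 1 and -1.07 within replicate 2, and did not pass (adjusted p = 0.0717). In all, 153 genes were at least 2-fold higher within both replicates, of which 85 were called, and 41 at least 2-fold lower, of which 3 were called.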
